A study of Mus musculus with 4 samples.

Results

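The regions described here are stretches of the mouse genome that had a MeDIP-seq peak in all islet libraries and held more tags in βRapKO than in WT islets. MeDIP-seq pulls down sheared DNA with an antibody against methylated cytosine and sequences it, so that tags pile up where methylated CpG sites are dense. It was measured in islets of mice 8 weeks old on a C57BL/6 background, with 2 libraries from Raptor lox/lox mice, called WT, and 2 from Raptor lox/lox mice that also carried RipCre, called βRapKO. Both genotypes thus carried the lox-flanked Raptor gene, and the βRapKO mice alone carried Cre, which is driven by the rat insulin promoter and so acts in insulin-expressing cells, while handpicked islets also hold other cells. A difference in the make-up of the islets and a difference within the cells of a type cannot be told apart in such samples. The paper states that male mice were used unless otherwise noted. It also gives the Cre line a mixed background, only part of it C57BL/6. A strain difference that came with Cre cannot be told apart from the genotype either. Peaks of the 4 libraries that overlapped were joined into 180857 regions on chromosomes 1 to 19, and 72519 of them had a peak in every library. The 41508 regions with at least 50 tags in each library are called well covered. Levels are in CPM: a library's tags in the region, divided by its tags after filtering and multiplied by 1000000. Regions were chosen by their tags: a region was taken where the mean βRapKO CPM was more than 1.5 times the mean WT CPM, which held for 352 of the 41508 regions (0.848%). The opposite rule, mean WT CPM more than 1.5 times the mean βRapKO CPM, held for 646 regions (1.56%). Since the measured tags chose the regions, their difference in tags is given as a description, with no test.

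In mammalian DNA, cytosine methylation sits mostly at CpG sites, is laid down by the DNMT enzymes and is removed with the help of the TET enzymes. Most CpG sites in gene bodies, between genes and in transposable elements are methylated, whereas CpG-rich promoters of active genes usually are not. Raptor is the subunit that defines the kinase complex mTORC1, which drives protein synthesis and growth in response to amino acids and insulin signalling.

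The sequences below show what kind of DNA lay under these peaks. They are read from the plus strand of GRCm38 (mm10), 5′ to 3′, with each CG in capitals. A summit window is 300 bases around the summit of the peaks, and a βRapKO-only stretch lay under a peak of both βRapKO libraries and of neither WT library. The first is the region whose peaks had nearly the same width in all 4 libraries, in intron 22 of Fig4. The next pair is from the region with the largest ratio, between genes on chromosome 5, in a repeat. The pair after that lies in the body of Slc38a2, in DNA without repeats. The last 3 come from the regions at the starts of Cdh22, where both windows lay upstream of the promoter, and Hsd17b2, where the window lay in it.
Fig4 summit, chr10:41193989-41194288: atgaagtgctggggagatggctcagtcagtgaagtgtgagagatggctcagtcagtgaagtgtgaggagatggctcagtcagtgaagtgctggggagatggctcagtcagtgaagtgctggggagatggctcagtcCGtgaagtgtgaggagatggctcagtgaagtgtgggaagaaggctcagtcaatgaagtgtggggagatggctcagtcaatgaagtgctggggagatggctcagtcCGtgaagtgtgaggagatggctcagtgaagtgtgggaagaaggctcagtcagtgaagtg
Chromosome 5 summit, chr5:151524750-151525049: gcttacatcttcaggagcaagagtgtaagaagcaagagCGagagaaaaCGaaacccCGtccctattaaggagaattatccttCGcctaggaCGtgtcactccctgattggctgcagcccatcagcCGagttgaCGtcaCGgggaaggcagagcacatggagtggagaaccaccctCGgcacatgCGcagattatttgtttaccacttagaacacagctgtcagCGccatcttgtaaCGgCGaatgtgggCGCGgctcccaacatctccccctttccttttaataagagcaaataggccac
Chromosome 5 βRapKO-only stretch, chr5:151526211-151526410: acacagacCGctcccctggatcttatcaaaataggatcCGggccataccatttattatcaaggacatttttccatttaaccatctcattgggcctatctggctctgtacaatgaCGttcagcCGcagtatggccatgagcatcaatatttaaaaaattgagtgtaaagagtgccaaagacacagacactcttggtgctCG
Slc38a2 summit, chr15:96692424-96692723: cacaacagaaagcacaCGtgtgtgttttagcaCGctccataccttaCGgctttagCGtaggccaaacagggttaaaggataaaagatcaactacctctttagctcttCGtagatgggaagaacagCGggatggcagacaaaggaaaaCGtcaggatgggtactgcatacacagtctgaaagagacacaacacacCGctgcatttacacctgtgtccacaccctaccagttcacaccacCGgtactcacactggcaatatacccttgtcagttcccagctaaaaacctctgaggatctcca
Slc38a2 βRapKO-only stretch, chr15:96692950-96693093: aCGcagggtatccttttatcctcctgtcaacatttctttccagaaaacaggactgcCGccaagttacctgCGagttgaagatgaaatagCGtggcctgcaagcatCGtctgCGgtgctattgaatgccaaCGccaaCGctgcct
Cdh22 upstream summit, chr2:165236301-165236600: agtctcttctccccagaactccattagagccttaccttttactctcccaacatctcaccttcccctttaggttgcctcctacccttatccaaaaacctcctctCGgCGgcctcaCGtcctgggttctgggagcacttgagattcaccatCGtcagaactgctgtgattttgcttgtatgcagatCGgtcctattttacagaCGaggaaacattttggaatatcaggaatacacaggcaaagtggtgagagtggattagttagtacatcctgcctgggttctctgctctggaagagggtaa
Cdh22 upstream βRapKO-only stretch, chr2:165237398-165237597: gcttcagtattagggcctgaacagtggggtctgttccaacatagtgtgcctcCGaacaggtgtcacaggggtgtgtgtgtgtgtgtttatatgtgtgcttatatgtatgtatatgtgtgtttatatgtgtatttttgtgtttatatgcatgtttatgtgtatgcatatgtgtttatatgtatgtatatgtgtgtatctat
Hsd17b2 promoter summit, chr8:117701407-117701706: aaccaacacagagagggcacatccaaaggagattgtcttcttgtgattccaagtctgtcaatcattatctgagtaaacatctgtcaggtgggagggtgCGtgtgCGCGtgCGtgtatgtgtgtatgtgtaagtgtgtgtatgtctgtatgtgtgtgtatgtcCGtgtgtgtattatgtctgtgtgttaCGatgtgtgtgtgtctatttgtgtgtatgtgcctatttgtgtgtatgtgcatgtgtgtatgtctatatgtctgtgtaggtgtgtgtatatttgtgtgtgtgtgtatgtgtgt

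The summit window in Fig4 held 2 CG dinucleotides and repeated the same short unit along its length. The chromosome 5 summit window held 15 CG dinucleotides and the Slc38a2 window 9, against a median of 10 over the 352 regions and 11 over all well-covered regions. At 10 kb from these windows the median was 2 for both sets.

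Before the regions themselves, the libraries were compared. They held 25585533 to 31330751 tags after filtering, and log2 tags over the well-covered regions correlated at 0.912 within WT and 0.911 within βRapKO, against 0.897 to 0.912 across genotypes. No peak was called at the promoters of 8 genes that mark beta cells (Ins1, Ins2, Iapp, Mafa, Ucn3, Slc2a2, Pdx1 and Nkx6-1), and none at those of the matched markers of alpha, delta, acinar and mesenchymal cells. The promoters of Krt19, a duct gene, and of Cdh5, an endothelial gene, had a peak in all 4 libraries, but those of the duct genes Sox9 and Muc1 and the endothelial gene Kdr had none, and Pecam1 had one in 1 library. Of the immune genes, Ptprc had a peak in 2 libraries and Cd68 and Adgre1 had none. A methylation peak is not a measure of expression, and its absence does not identify a cell type. At Rptor, the targeted gene, 9 regions were well covered and none was among the 352. With edgeR's quasi-likelihood test over the 72519 regions with a peak in every library, 0 regions (0.00%) passed an FDR of 0.05 with a fold-change above 1.5 in either direction. At an unadjusted p under 0.05, edgeR gave 1375 regions higher and 2851 lower in βRapKO when scaled to tags after filtering. With TMM it gave 2164 higher and 1770 lower. DESeq2, which scales libraries in its own way, gave 584 and 357, also with none past the FDR. Its smallest adjusted p was 0.0502.

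The 352 regions had a median of 2.97 and 3.06 CPM in WT replicates 1 and 2 and of 5.13 and 5.16 CPM in βRapKO replicates 1 and 2. Over all well-covered regions the medians lay between 3.08 and 3.36 CPM in all 4 libraries. The ratio of the means ran from 1.5003 to 2.85 with a median of 1.61, and 28 regions had more than 2 times the tags in βRapKO. Both βRapKO libraries lay above both WT libraries in 316 regions, against 9.12% of the well-covered regions, and in the other 36 the genotypes overlapped. The rule itself favours such separation, so this count describes the choice. Each βRapKO library was more than 1.5 times above each WT library in 100 regions. The 3 regions nearest to the threshold on the inside had ratios of 1.5003, 1.5008 and 1.5014, and the 3 nearest on the outside, of which 1 lay in Zfp39, had ratios of 1.4995, 1.4990 and 1.4973. The lowest count in the set was 50 tags, reached in a WT library at Chst10, where the βRapKO libraries held 80 and 84. In the plot of the means, the chosen regions form the upper edge of one continuous cloud. The number of regions depended on each library. With a library left out, more regions than the 41508 were well covered. Without WT replicate 1 the rule chose 1105 of 47530 regions (2.32%), and without WT replicate 2 it chose 796 of 42782 (1.86%). Without βRapKO replicate 1 it chose 765 of 45924 (1.67%), and without βRapKO replicate 2 it chose 556 of 44362. All of these shares were above 0.848%. Leaving out a library changed both the eligible regions and the means, and the part of each was not tested. Of the chosen regions, 275, 247, 278 and 256 were among the 352. The number of regions also depended on the scaling. Scaled to the tags that fell in peaks, 883 regions were higher and 237 lower, against 352 and 646. With TMM normalization 493 were higher and 439 lower. The first of these scalings moved the median log2 ratio of all well-covered regions by 0.16, from -0.08 to 0.08.

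**Figure D1:**
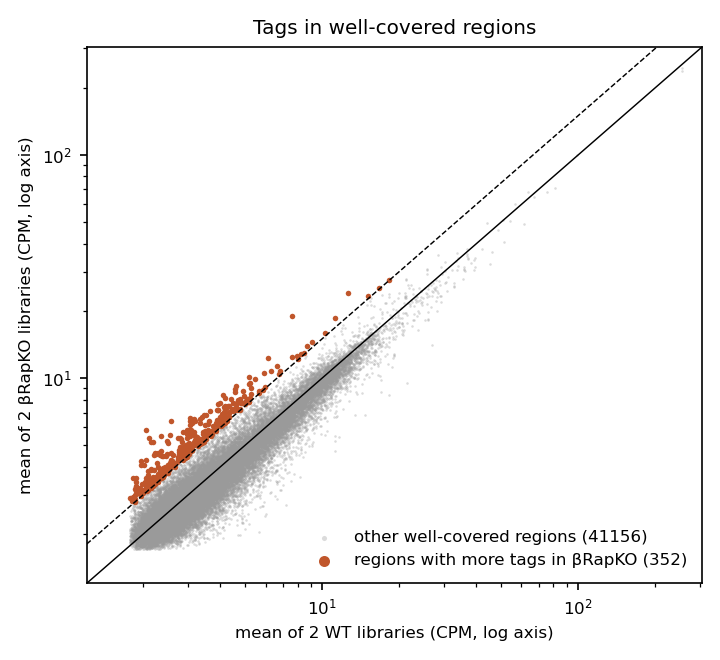
Mean CPM of the 2 βRapKO libraries against mean CPM of the 2 WT libraries for each well-covered region, both on log axes, with the 352 chosen regions in orange; the solid line marks equal means and the dashed line a ratio of 1.5. The chosen regions lie just above the dashed line, with WT means from 1.78 to 18.2 CPM.

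In the chosen regions, peaks ran over more DNA in βRapKO. Peaks covered a median of 1334 and 1284 bp of these regions in WT and 2696 and 2711.5 bp in βRapKO, while over all well-covered regions the medians were 1445 and 1365 bp in WT and 1468 and 1535 bp in βRapKO. More bases were covered in βRapKO in all 352 regions. The excess was more than 1.5-fold in 320 of them, against 3.92% of the well-covered regions, and more than 2-fold in 150, against 0.593%. Both βRapKO libraries covered more bases than both WT libraries in 307 regions, against 31.0% of the well-covered regions. At least 2000 bp were covered in 49 and 28 regions in WT and in 281 and 285 in βRapKO, beside 24.1%, 21.9%, 25.4% and 28.3% of all well-covered regions in the same libraries. Covered length comes from the same peaks as the tags that chose the regions, so these counts describe the choice and are no separate evidence.

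Per kb of peak, the tags of most chosen regions were lower in βRapKO. The median over the 352 regions was 2.15 and 2.30 CPM per kb in WT and 1.98 and 1.96 CPM per kb in βRapKO. The log2 ratio of the means had a median of -0.20, beside -0.18 over all well-covered regions, and it was below 0 in 288 regions and above 0 in 64 (16.4% of the well-covered regions were above 0). It passed 1.5-fold in none of the 352, against 0.0410% of the well-covered regions. The largest value was 1.39-fold, in Fig4. The fold enrichment that the peak caller gives to a peak over its local background had a median log2 ratio of -0.09 in these regions and -0.14 in all well-covered regions. Median peak width over chromosomes 1 to 19 was 1058 and 936 bp in WT and 1100 and 1149 bp in βRapKO, and the fragment size that the caller estimated was 275 and 238 bp in WT and 269 and 283 bp in βRapKO. The part of these library-wide values in the result was not tested.

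**Figure D2:**
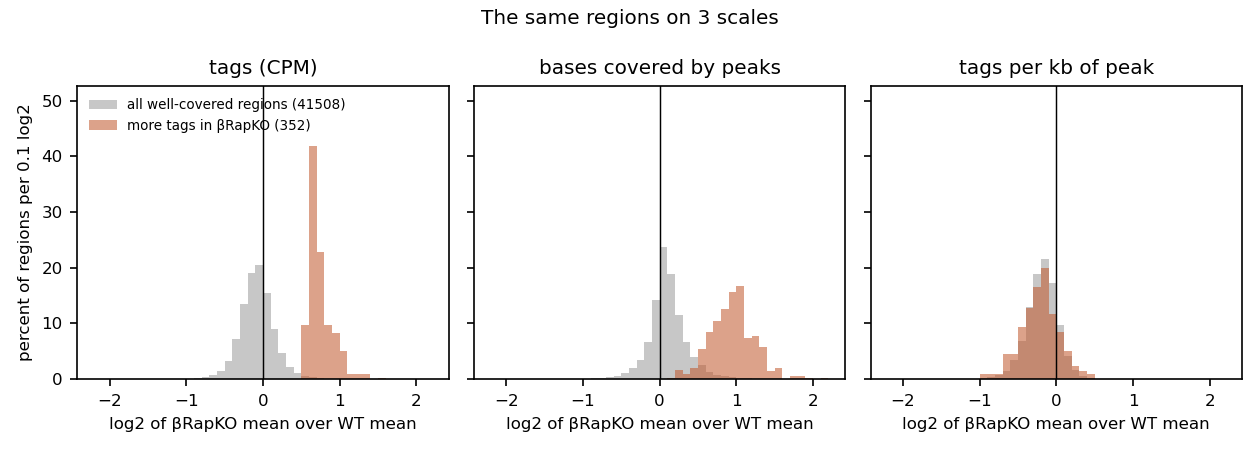
Log2 of the βRapKO mean over the WT mean for tags, for bases covered by peaks and for tags per kb of peak, as the percent of regions in each step of 0.1, for all 41508 well-covered regions (grey) and the 352 chosen regions (orange). The chosen regions stand to the right for tags, where they were chosen, and for covered bases, with a median of 0.96, but overlie the others for tags per kb, with a median of -0.20.

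Bases under both βRapKO libraries and under neither WT library were present in 330 of the 352 regions, against 49.7% of all well-covered regions, with a median of 827.5 bp over the 352. They lay on both outer sides of the WT peaks in 97 regions, on 1 side in 224 and between WT peaks in 30, and in 7.67%, 40.8% and 2.41% of all well-covered regions, so that outer sides were the usual place in both sets. Bases under both WT libraries and neither βRapKO library were present in 16 regions, against 14.7% of all. In 206 of the 244 regions with at least 200 bp of each kind, the βRapKO-only bases had a lower density of CpG sites than the bases shared by all 4 libraries, a share of 84.4% that was below the 90.1% of all well-covered regions. Summed over the regions, the shared bases held 2.40 CpG sites per 100 bp and the βRapKO-only bases 1.92. In all well-covered regions these values were 2.53 and 1.29. In 17 regions no base lay under a peak of all 4 libraries, against 0.222% of all, and those in Slc38a2 and Igf1r were among them.

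The region with the largest ratio, chr5:151524247-151527154, lay 34036 bp from Vmn2r18, a vomeronasal receptor gene, and its bases were 98.5% repeat. It held 58 and 57 tags in WT and 188 and 152 in βRapKO, or 2.04 ± 0.317 and 5.82 ± 0.865 CPM (mean ± SD, n = 2), a ratio of 2.85. Its peaks covered 1188 and 996 bp in WT and 2592 and 2706 bp in βRapKO. Its log2 ratio per kb was 0.24, so that it was higher in βRapKO on that scale too. The second, chr2:173706069-173709752, spanned the 3′ end of Rab22a (ENSMUSG00000027519.10, exon 7 of 7), which encodes a small GTPase of endosomal transport. It held 52 and 68 tags in WT and 159 and 156 in βRapKO, a ratio of 2.57. There the 2 WT peaks, of 976 and 980 bp, shared 8 bp with each other and the βRapKO peaks, which ran over 3414 and 3684 bp.

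Slc38a2 (ENSMUSG00000022462.7), which encodes a sodium-coupled transporter of neutral amino acids, was the only gene with all of its well-covered regions, 2 of 2, among the 352 of the genes that held 2 of them. The region in its body, chr15:96690842-96694389, spanned exons 8 to 15 of 16 and held 51 and 98 tags in WT and 171 and 204 in βRapKO, or 2.56 ± 0.802 and 6.42 ± 0.806 CPM (mean ± SD, n = 2), a ratio of 2.51. WT replicate 1 had 1 peak at the end with the higher coordinates and WT replicate 2 had 2 peaks in the rest, while the βRapKO peaks ran over nearly the whole region, and the log2 ratio per kb was 0.21. The other region, chr15:96700664-96703733, began 934 bp upstream of the gene start. It held 82 and 56 tags in WT and 121 and 116 in βRapKO, a ratio of 1.63, and both βRapKO libraries lay above both WT libraries. Its log2 ratio was 1.18 without WT replicate 1 and 0.34 without WT replicate 2, against 0.70.

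The other regions among the 8 with the largest ratio were alike in their peaks. Alg9, which encodes a mannosyltransferase of protein glycosylation, held chr9:50804815-50808123 over exons 11 to 12 of 15, with 57 and 64 tags in WT and 142 and 158 in βRapKO. Its ratio of tags was 2.41 and its log2 ratio per kb was -0.84, the lowest of the 8, with 4.30 times the covered bases in βRapKO. Patj, which encodes a scaffold protein of tight junctions, held chr4:98566429-98569726 at exon 28 of 44, with 59 and 64 tags in WT and 134 and 168 in βRapKO, a ratio of 2.38. In both genes the genotypes were far apart in tags and the order was turned around per kb. Slc22a13, an organic anion transporter gene, held chr9:119203272-119206276 in intron 1, with 61 and 84 tags in WT and 161 and 163 in βRapKO, a ratio of 2.19. A region 118715 bp from Jarid2, which encodes a partner of the Polycomb complex, held 72 and 58 tags in WT and 147 and 173 in βRapKO at chr13:44607528-44610759, a ratio of 2.35.

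**Figure D3:**
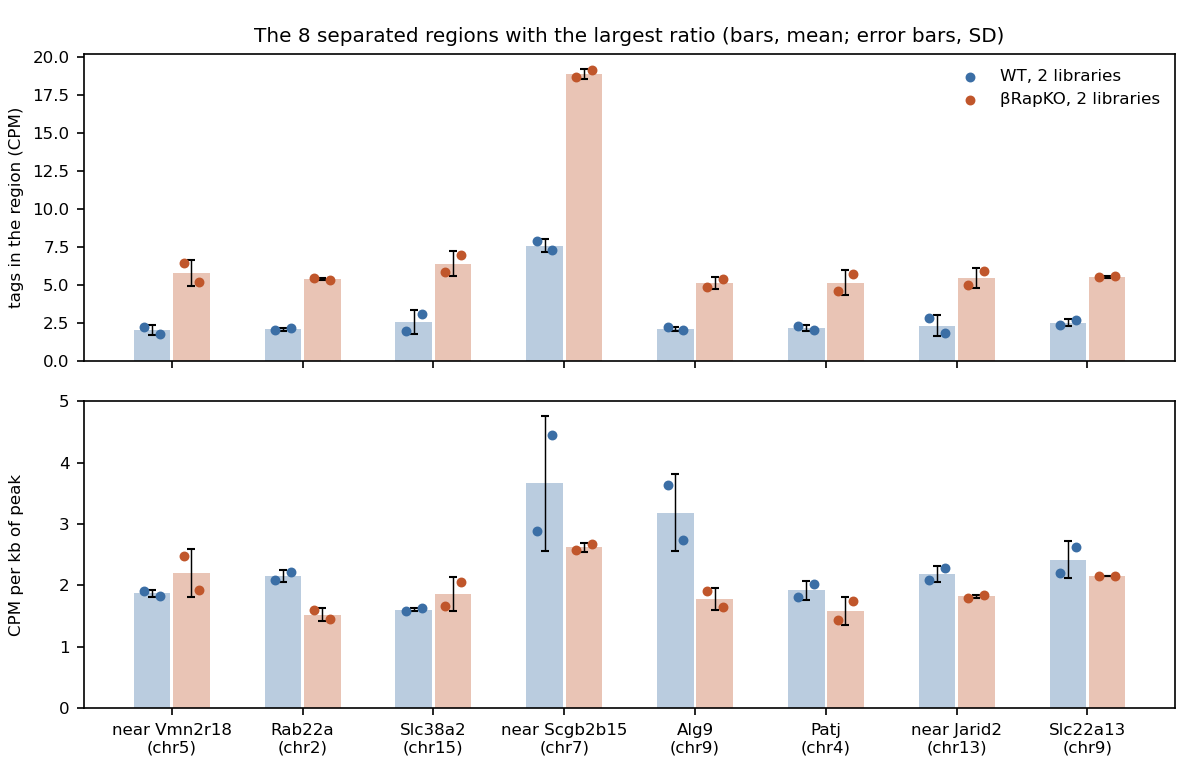
CPM in the region (top) and CPM per kb of peak (bottom) for the 8 regions with the largest ratio of those whose genotypes do not overlap; points are libraries, bars are means of 2 libraries and error bars are SDs. All βRapKO points lie above the WT points in the top panel, and in 6 of the 8 regions the βRapKO mean per kb is the lower one.

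The 6 regions with the highest CPM were long and, in 5 of them, almost wholly repeat. The highest, chr6:15550847-15558527, lay 108870 bp from Foxp2 and was 95.4% repeat. It held 487 and 544 tags in WT and 794 and 817 in βRapKO, or 18.2 ± 1.18 and 27.6 ± 0.588 CPM (mean ± SD, n = 2), a ratio of 1.52. Its WT peaks began 2842 and 2943 bp after the region's first base and its βRapKO peaks at 0 and 93 bp, while all 4 ended near one another. A region within the bounds of C130026I21Rik, chr1:85138641-85145693, held 333 and 638 tags in WT and 708 and 770 in βRapKO. In CPM these were 13.02 and 20.4 in WT and 24.2 and 26.4 in βRapKO, and the log2 ratio was 0.96 without WT replicate 2 and 0.31 without WT replicate 1, against 0.60. The region chr3:10875391-10882578 had the same shape, with 310 and 563 tags in WT and 685 and 674 in βRapKO, and a log2 ratio of 0.94 without WT replicate 2 and 0.37 without WT replicate 1, against 0.63.

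The other 3 of these 6 regions moved less with a library left out than those on chromosomes 1 and 3. At chr2:181916041-181922387, 45211 bp from Polr3k, the libraries held 358 and 351 tags in WT and 686 and 722 in βRapKO, a ratio of 1.91. This region was 78.9% repeat, and its 3112 βRapKO-only bases held 3.57 CpG sites per 100 bp against 1.33 in the bases shared by all 4 libraries. At chr9:4237766-4243818 the libraries held 293 and 341 tags in WT and 530 and 552 in βRapKO, a ratio of 1.66. At chr7:32666424-32673726, 153957 bp from Scgb2b15, they held 202 and 229 tags in WT and 546 and 559 in βRapKO, or 7.60 ± 0.414 and 18.9 ± 0.336 CPM (mean ± SD, n = 2), a ratio of 2.49. This was the one region on both lists, and its 4261 βRapKO-only bases were the most of any of the 352. In these 6 regions, the most copied part of the summit window had 13 to 397 copies on chromosomes 1 to 19.

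**Figure D4:**
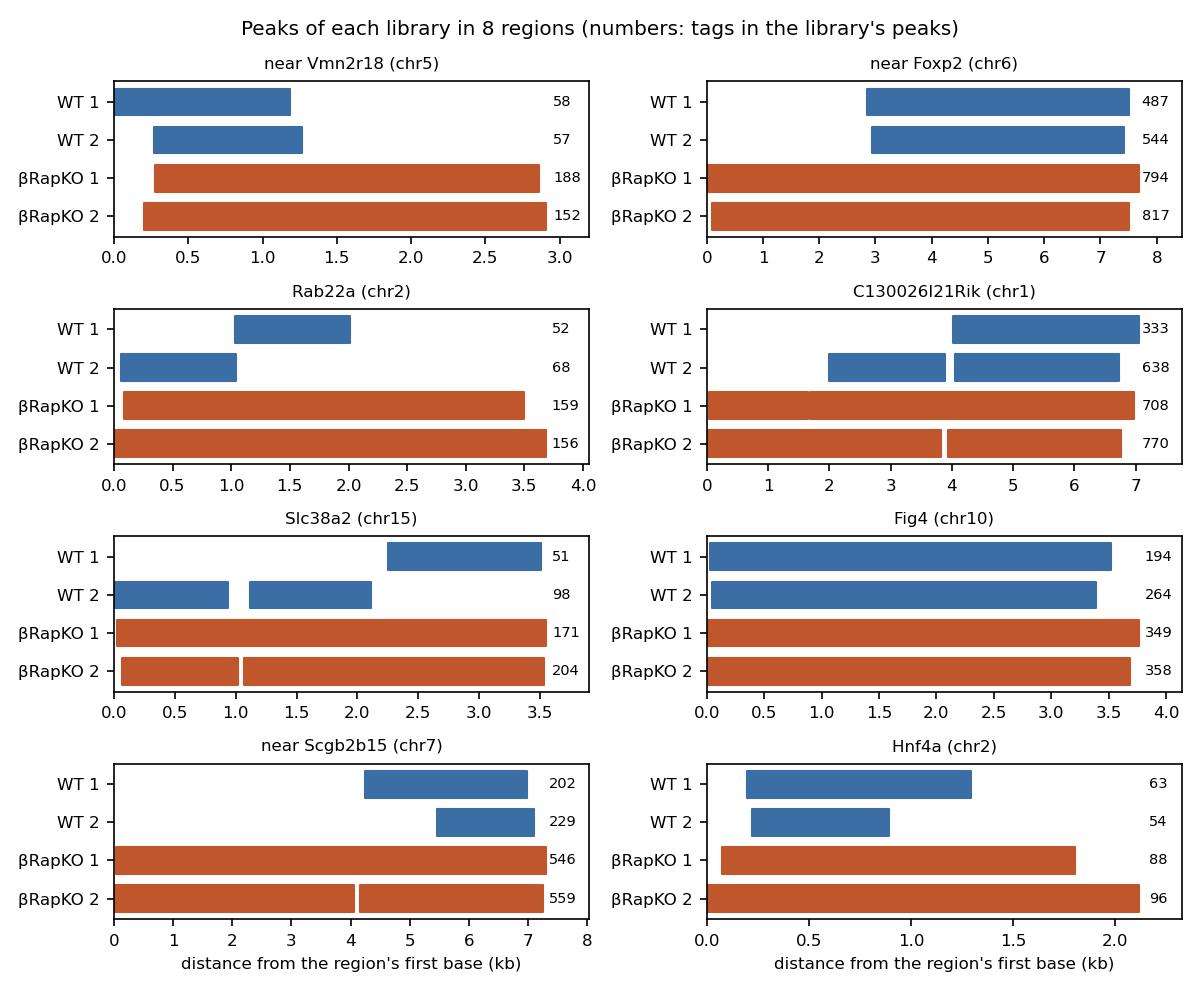
Peaks of each library drawn along 8 of the regions, as the distance from the region's first base in kb, with WT in blue, βRapKO in orange and the tags of each library at the right. Summed over its peaks, each βRapKO library covers more bases than each WT library in every panel, with the smallest ratio in Fig4.

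Fig4, which encodes a phosphoinositide phosphatase, held the only region of the 352 with 1 peak in each library and peak widths within 25% of each other, whereas 37.5% of the well-covered regions were of that kind. The region, chr10:41191698-41195459, held 194 and 264 tags in WT and 349 and 358 in βRapKO, or 8.00 ± 0.597 and 12.1 ± 0.231 CPM (mean ± SD, n = 2), a ratio of 1.51. Its peaks covered 3495 and 3344 bp in WT and 3762 and 3674 bp in βRapKO, and it held 2.17 and 2.52 CPM per kb in WT and 3.17 and 3.34 in βRapKO, without overlap between the genotypes. It is 91.9% repeat and held 0.43 CpG sites per 100 bp, the lowest density of the 352 regions. The sequence at its summit, printed above, has parts with up to 5 copies on chromosomes 1 to 19.

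Promoters, taken as 1000 bp before to 500 bp after the start of a protein-coding gene, held 10 of the 352 regions, and the 8 with the largest ratio had ratios from 1.54 to 1.65. Over all well-covered regions 2.53% lay at a promoter. The region upstream of Cdh22, a cadherin gene, held 104 and 125 tags in WT and 256 and 129 in βRapKO at chr2:165235374-165240083. The 2 βRapKO libraries differed more from each other than the second did from WT, and the log2 ratio was 0.13 without βRapKO replicate 1 and 1.12 without βRapKO replicate 2, against 0.71. At the start of Gdf5, a growth factor gene of the BMP family, chr2:155941263-155945857 held 113 and 132 tags in WT and 138 and 252 in βRapKO, and the log2 ratio was 0.13 without βRapKO replicate 2 and 1.001 without βRapKO replicate 1, against 0.63. At the start of Hsd17b2, whose enzyme inactivates oestradiol and testosterone, chr8:117698645-117702549 held 80 and 52 tags in WT and 144 and 84 in βRapKO. In CPM the genotypes overlapped there, with 3.13 in WT replicate 1 and 2.88 in βRapKO replicate 2. The log2 ratio was 0.27 without βRapKO replicate 1, 0.32 without WT replicate 2 and 1.23 without WT replicate 1, against 0.71. At Gm32802, chr10:118257419-118261501 held 55 and 171 tags in WT and 180 and 162 in βRapKO, and in CPM a WT library reached 5.46 beside 5.55 in a βRapKO library. The log2 ratio was 1.45 without WT replicate 2 and 0.10 without WT replicate 1, against 0.62. Upstream of Vkorc1, the vitamin K epoxide reductase gene, and of Gm21974, which starts near it, chr7:127895902-127898398 held 51 and 68 tags in WT and 78 and 115 in βRapKO. Its log2 ratio was 0.36 without βRapKO replicate 2 against 0.67. At Fam209, chr2:172470467-172473350 held 62 and 118 tags in WT and 141 and 149 in βRapKO, with a log2 ratio of 1.04 without WT replicate 2 and 0.40 without WT replicate 1, against 0.68. At Pcdhga2, a clustered protocadherin gene, chr18:37669121-37671646 held 53 and 94 tags in WT and 139 and 105 in βRapKO, with a log2 ratio of 0.48 without WT replicate 1 against 0.72.

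Of the 19 gene lists examined, 8 held a region of the 352 and the other 11 held none. Since 0.848% of all well-covered regions were chosen, and the lists held between 1 and 3 of them, these counts are too small to set a list apart. In insulin and IGF signalling, 3 of 57 well-covered regions were chosen. Igf1r, the receptor gene, held 99 and 70 tags in WT and 188 and 173 in βRapKO over exons 11 to 13 of 21 at chr7:68193036-68196626, or 3.05 ± 1.16 and 6.18 ± 0.356 CPM (mean ± SD, n = 2), a ratio of 2.03, with a log2 ratio of 0.68 without WT replicate 2 against 1.02. A region where the 3′ ends of Pik3cd, a catalytic PI3K subunit, and Clstn1 meet, chr4:149646438-149650491, held 129 and 166 tags in WT and 309 and 279 in βRapKO, a ratio of 1.95. Both genes' regions had 2.59 and 2.94 times the covered bases in βRapKO and fewer tags per kb. Pik3r1, a regulatory PI3K subunit, held 94 and 70 tags in WT and 123 and 136 in βRapKO over exons 12 to 15 of 16 at chr13:101685638-101688241, with a ratio of 1.5014 at the threshold. In CPM, WT replicate 1 had 3.67 there beside 4.21 in βRapKO replicate 1, and the log2 ratio was 0.99 without WT replicate 1 and 0.27 without WT replicate 2, against 0.59.

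Among 16 well-covered regions of beta cell identity factors, 1 was chosen. It lay at exon 10 of 10 of Hnf4a, a nuclear receptor gene mutated in an inherited form of diabetes, at chr2:163569703-163571818. It held 63 and 54 tags in WT and 88 and 96 in βRapKO, or 2.09 ± 0.522 and 3.15 ± 0.197 CPM (mean ± SD, n = 2), a ratio of 1.51, with a log2 ratio of 0.36 without WT replicate 2 against 0.59. Cacna1d, an L-type calcium channel gene, gave 1 of 68 regions of calcium channels, with 54 and 65 tags in WT and 89 and 118 in βRapKO over exons 23 to 25 of 47 at chr14:30101857-30104302, a ratio of 1.69. Kcnn3, a calcium-activated potassium channel gene, gave 1 of 132 regions of potassium channels, with 54 and 87 tags in WT and 121 and 103 in βRapKO in intron 2 at chr3:89578950-89581562, a ratio of 1.57. Genotypes did not overlap in CPM in these 3 regions.

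The remaining lists with a region were imprinted genes, with 1 of 45 regions in Rtl1, clustered protocadherins, with the 1 of 34 at Pcdhga2 given above, zinc finger genes, with 1 of 429 in Zfp423, and chemoreceptors, with 1 of 126 in Olfr1155. Rtl1, a gene derived from a retrotransposon and expressed from the paternal copy, held 75 and 120 tags in WT and 146 and 157 in βRapKO at chr12:109591452-109594721, a ratio of 1.54, and had the highest CpG density of the 352 regions, 3.27 sites per 100 bp. Zfp423 held 68 and 56 tags in WT and 110 and 92 in βRapKO in intron 3 at chr8:87815110-87816689, with a log2 ratio per kb of 0.16 and a log2 ratio of tags of 0.38 without WT replicate 2 against 0.64. Olfr1155 held 82 and 88 tags in WT and 177 and 163 in βRapKO at chr2:87938746-87941782, a region of 94.6% repeat with a ratio of 1.94. None was chosen among the well-covered regions of mTORC1 genes (51), disallowed genes (46), DNA methylation enzymes (20), glucose sensing (15), insulin granule exocytosis (24), the Wnt pathway (94), collagens (94), germline genes (33) and alpha cell and progenitor regulators (5), and islet hormone genes and Hox genes had no well-covered region. At the share of 0.848%, even 94 regions would give less than 1, so these counts of 0 say nothing about the lists. Median log2 ratios of tags over all well-covered regions of these lists lay between -0.20 and 0.01, beside -0.08 over all well-covered regions.

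The regions were spread over the genome. They made up between 0.399% of the well-covered regions on chromosome 18 and 1.17% on chromosome 12, and the median distance to the nearest other was 1925.9 kb. They lay at 189 protein-coding genes, and 8 genes held 2 each, among them Gabbr2, Gm20388, Patj, Ptpn3, Sh3pxd2a, Slc38a2 and Trpm8. In Ptpn3, a tyrosine phosphatase gene, chr4:57198349-57200037 held 119 and 117 tags in WT and 200 and 188 in βRapKO under peaks of 1396 and 1091 bp in WT and 1689 and 1262 bp in βRapKO, and its log2 ratio per kb was 0.44. The second Ptpn3 region, chr4:57277332-57280910, held 88 and 85 tags in WT and 85 and 189 in βRapKO, so that it rested on βRapKO replicate 2. The same held for 1 region of Sh3pxd2a, with 51 and 60 tags in WT and 58 and 120 in βRapKO at chr19:47358145-47360994. Of the fixed 1 Mb windows, 4 held 3 regions each, among 21 to 46 well-covered regions. The one on chromosome 1 from 88 to 89 Mb held Mroh2a and both regions of Trpm8, a cold-sensing channel gene, and at chr1:88282287-88287758 in Trpm8 the tags were 169 and 216 in WT and 209 and 399 in βRapKO.

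By their place relative to genes, the chosen regions had shares close to those of all well-covered regions. A protein-coding gene body or the 2000 bp upstream of one was overlapped by 50.6% of the 352 regions and by 52.4% of all well-covered regions, against 66.9% of the 646 regions of the opposite rule. Promoters made up 2.84%, 3′ ends 3.69%, exons 21.6%, introns 22.4%, intergenic DNA within 100 kb of a gene 31.0% and intergenic DNA beyond that 18.5%. In all well-covered regions these shares were 2.53%, 3.95%, 22.6%, 23.05%, 30.0% and 17.9%. The regions of the opposite rule had 32.0% at exons and 7.43% beyond 100 kb. CpG density differed little, with a median of 1.96 sites per 100 bp in the chosen regions, 1.99 in all and 1.86 in the opposite set. By repeats, 31.8% of the chosen regions were at least 80% repeat, against 20.5% of all and 7.59% of the opposite set. Of the 112 chosen regions of that kind, 79 shared a sequence given below, which was picked from the chosen regions themselves.

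**Figure D5:**
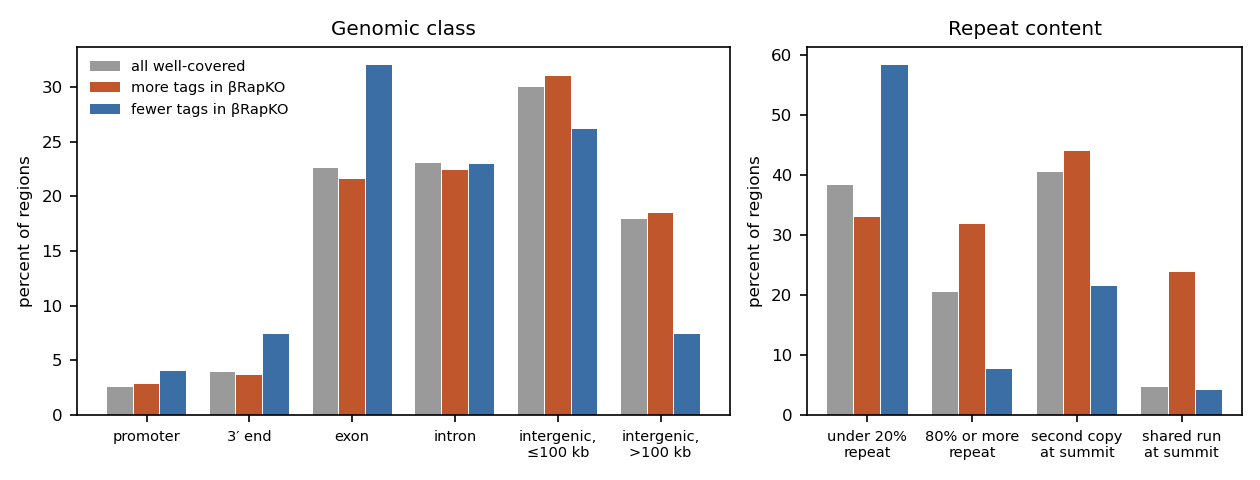
Percent of regions in each genomic class (left) and by repeat content (right) for all well-covered regions (grey), the 352 chosen regions (orange) and the 646 regions of the opposite rule (blue). The chosen regions follow the grey bars by class and stand above them for regions of at least 80% repeat and for the shared run in the summit window, 23.9% against 4.65%.

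Many of the repeat-rich regions shared a sequence. The 16 bases atgggctgcagccaat, found by comparing summit windows after the values had been seen, stood on either strand in the summit window of 84 of the 352 regions (23.9%), of 1931 well-covered regions (4.65%) and of 27 regions of the opposite rule (4.18%). It was picked as the run present in the most of the 352 windows, so its share there is fixed by the choice and has no test. The run has 6610 exact copies on chromosomes 1 to 19. Of the regions with the run 4.35% were chosen, and of those without it 0.677%. All 84 had other copies of parts of their summit window elsewhere on these chromosomes, and 79 were at least 80% repeat. Without the run, 33 of 268 chosen regions were at least 80% repeat. That was a lower share than the 7106 of 39577 well-covered regions without the run. Because the run was picked from the chosen regions, setting it aside takes more repeat-rich regions from them than from all. This comparison therefore cannot say where the higher repeat share of the chosen regions lay. Its letters resemble part of the long terminal repeat of intracisternal A particles, a mouse transposon family that is heavily methylated in somatic tissues. The reference used here marks repeats without naming their family, so this was not tested. The palindrome TGACGTCA, which reads the same on both strands and is the letters of a cAMP response element, was in 62 of the 352 summit windows (17.6%) against 2.63% of all, and each of the 62 also held the run. The chosen regions held CACGTG in 6.25% of summit windows, against 8.48% of all, and GGGCGG in 6.53% against 9.85%, with both strands counted.

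Peak width over the run was then compared between libraries. Over all 1931 regions with the run, at least 2000 bp were covered in 45.5% and 41.6% in WT and in 54.8% and 55.5% in βRapKO, above the shares of all well-covered regions given earlier. The median log2 ratio of the 1931 regions was -0.02 for tags and -0.16 for tags per kb, beside -0.08 and -0.18 over all. In the 84 chosen regions with the run, the median covered length was 1305.5 and 1353 bp in WT and 2829 and 2761 bp in βRapKO, and the median log2 ratio per kb was -0.27. In the 268 chosen regions without the run, the lengths were 1354.5 and 1250 bp in WT and 2571 and 2593 bp in βRapKO, with a median of -0.18 per kb. Reads from such copies can be placed at more than one position, and how the aligner placed them is not given in the sources used here. In an alternative added after the data were seen, the rule was applied only to regions whose summit window had no second copy of any of its parts. It chose 197 of these 24710 well-covered regions (0.797%). Both βRapKO libraries lay above both WT libraries in 180 of the 197, against 8.67% of the 24710. The rule itself favours such separation, so this count describes the choice and is no separate evidence. Copies were sought by exact match in the summit window only, so the rest of a region could still have copies.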

How the data were processed

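Methylated DNA of islets was measured in 4 libraries, 2 WT and 2 βRapKO. Per the labels and the methods, the authors aligned reads with Bowtie2 (version 2.2.5) and called peaks in each library with MACS, at version 0.14.2 per the labels and 1.4.2 per the file headers, without a control, at p under 1.00e-05 and with 1 tag kept per position. The labels name builds mm9 and mm10 and the methods mm10; no peak ran past a chromosome end of GRCm38, which was used here, and summit windows held a median of 11 CG dinucleotides in this build against 2 at 10 kb away. The authors deposited a count of tags for each peak, not normalized, with −log10(p) multiplied by 10 and a fold enrichment over local background. Tags outside peaks were not used here, so a region's count depends on where its peaks end.

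Overlapping peaks (1 bp or more, chromosomes 1 to 19) were joined and tags added. CPM used the tags after filtering of each file header. The chosen regions, the gene lists and the rules for naming regions were set with earlier results of these data known. Regions were named as the 8 largest ratios without overlap between genotypes, the 6 highest CPM, those with steady peak widths, the 8 largest ratios at promoters, up to 3 per gene list, those at the threshold and those of genes or 1 Mb windows with the most; Zfp39, Chst10, Mroh2a and all tied genes fall under these rules. Genes came from GENCODE M21 and sequence and repeat masking from the GRCm38.p6 reference of RefSeq. Exons were counted along 1 principal transcript per gene. All regions with a peak in every library were tested with edgeR (4.0.16, R 4.3.3) by genotype, without TMM, with Benjamini-Hochberg adjustment, after the test had been tested on simulated data. The alternatives were other tag minimums, ratios, library sizes, TMM, tags per kb, stricter peaks, a larger overlap, 1 peak per library, DESeq2 (1.42.0), a replicate block and each library left out. The labels do not say whether libraries came from separate animals, so p-values measure only the spread between these libraries. Replicates differed by more than counting noise (chi-square over the number of regions, 2.60 for WT and 2.57 for βRapKO). Peak ends set in each library can add to this value. It therefore cannot tell separate animals from repeated libraries of the same DNA. Python 3.11.15, NumPy 2.4.6, pandas 2.3.3, SciPy 1.17.1 and matplotlib 3.10.9 were used.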

Additional observations from a re-analysis of the deposited data

How the results depend on the processing

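Against 352 of 41508 regions (0.848%), the rule chose 81 of 13277 (0.61%) with at least 100 tags in each library. With no minimum it chose 943 of 72519 (1.3%). Both counts thus changed together with the number of eligible regions. Of the 41508, it chose 28 with a ratio above 2, 17 by tags per kb (0 of them among the 352) and 883 when scaled to the tags in peaks. It chose 197 of 24710 where summit windows had no second copy. It chose 275 to 493 with total tags, TMM, stricter peaks, a 50% overlap and 1 peak in each library. The 275 were of 28059 regions, with stricter peaks. With a library left out it chose 556 to 1105, of 42782 to 47530 regions. At least 80% repeat were 60.5% of the chosen regions with at least 100 tags and 17.7% with no minimum, against 31.8%. The share was 21.4% with a ratio above 2, 17.6% by tags per kb and 26.4% when scaled to the tags in peaks. It was 49.5% with stricter peaks and 20.9% to 31.3% with a library left out. Where a setting changed which regions were eligible, these shares were not compared with those of all eligible regions. A gene was overlapped by 39.5% with at least 100 tags, 58.8% by tags per kb and 40.7% with stricter peaks, against 50.6%, and by 49.6% to 56.1% with a library left out. Median CpG density was 2.16 with at least 100 tags, 1.68 with no minimum, 1.58 by tags per kb and 2.09 with stricter peaks, against 1.96, and 1.87 to 2.02 with a library left out. Promoters made up 0% with a ratio above 2 and 0% by tags per kb, and 1.88% to 2.22% with a library left out. The cause of these shifts was not tested.

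The median log2 ratio of tags per kb was -0.27 with stricter peaks and -0.044 when scaled to the tags in peaks, against -0.20, and -0.24 to -0.16 with a library left out. By tags per kb, 24 of the 31 regions named by the rules on ratio, CPM, steady width, promoters and lists had a log2 ratio below 0: -0.50 at Rab22a, -0.84 at Alg9, -0.27 at Patj, -0.17 at Slc22a13, -0.12 upstream of Slc38a2, -0.31 at Pcdhga2, -0.53 at Cdh22, -0.36 at Fam209, -0.41 at Vkorc1, -0.62 at Gdf5, -0.0067 at Gm32802, -0.54 at Hnf4a, -0.61 at Pik3cd, -0.39 at Igf1r, -0.43 at Rtl1, -0.0093 at Pik3r1, -0.21 at Cacna1d, -0.22 at C130026I21Rik, and -0.48, -0.26, -0.12, -0.29, -0.32 and -0.42 at the intergenic regions chr7:32666424-32673726, chr13:44607528-44610759, chr6:15550847-15558527, chr3:10875391-10882578, chr2:181916041-181922387 and chr9:4237766-4243818. None turned with TMM, when scaled to the tags in peaks or with a library left out.

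The labels give both genotypes replicates 1 and 2. With the replicate block, edgeR again called 0 regions, with 1536 higher and 3052 lower at an unadjusted p under 0.05. Deviations of same-numbered libraries correlated at 0.05, so the numbers were not taken as pairs. It also called 0 with TMM, with at least 50 tags, at an FDR of 0.01 and with each library left out, where the lone library was assumed to vary like the other group, and DESeq2 called 0. Their unadjusted counts ran from 584 to 2164 higher and from 357 to 3918 lower. The minimum of 50 tags in each library keeps shallow regions out of all these counts.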

Other observations

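Chromosomes X and Y were outside the rule. On X, 1064 regions were well covered, of which 5 had a mean βRapKO CPM more than 1.5 times the WT mean and 6 the opposite. On Y, 421 were well covered, with 4 in each direction.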
